A study of Mus musculus with 4 samples.

Results

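GATA1 is the transcription factor that red cell, megakaryocyte, mast cell and eosinophil precursors need to mature. It works in a complex: the basic helix-loop-helix factor TAL1 and the bridging proteins LMO2 and LDB1 join it on DNA, FOG1 (gene Zfpm1) binds GATA1 directly, and the repressor GFI1B and the factors KLF1 and NFE2 act on many of the same red cell genes. The 10 genes of this circuit described here were chosen by name because FAM122A has been tied to GATA1. They are Gata1, Klf1, Tal1, Nfe2, Gfi1b and Bcl11a, which bind DNA, the cofactor genes Zfpm1, Lmo2 and Ldb1, and Epor, the erythropoietin receptor. All 10 were found among the 51912 Ensembl genes listed, and all 10 passed the filter on low values.

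The libraries came from mouse cells sorted as long-term haematopoietic stem cells (LSK CD34- FLk2-), which are lineage-negative marrow cells with Sca1 and Kit and without CD34 and Flk2. There were 2 Fam122a KO and 2 WT libraries, all from C57BL/6 mice aged 8 to 12 weeks, and each held cells mixed from 3 animals. How the deletion was made and in which cells it acts is not given in the sources used here. In marrow, Tal1 and Lmo2 are already expressed in stem cells, while high Klf1 and Epor are known from cells further on the way to red cells.

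Levels were read as FPKM (fragments per kilobase, scaled to library size), which divides by gene length, so levels of different genes can be set side by side. WT replicate 2 held little mRNA signal. The median ribosomal protein gene stood at 13.0 FPKM there, against 317 to 476 FPKM in the other 3 libraries. Loci without a gene name took 53.9% of the total of WT replicate 2. They took 9.14% in WT replicate 1, more than the 1.74% and 1.81% in KO replicates 1 and 2. With the WT replicate 2 profile subtracted from WT replicate 1, the median log2 difference of KO from WT replicate 1 was 0.31 over all tested genes. It was -0.002 without the subtraction. The median of the 10 genes was 0.85 both ways. Beyond this subtraction, the part of this signal in the differences from WT replicate 1 was not tested. WT replicate 2 is shown separately, and the comparison is of Fam122a KO replicates 1 and 2 with WT replicate 1, which alone gives no WT spread. The steps between low values implied 5940000 to 6800000 fragments in the KO libraries, 4260000 in WT replicate 1 and 2500000 in WT replicate 2. Fam122a itself was at 0 FPKM in both KO libraries, against 18.4 and 7.46 FPKM in WT replicates 1 and 2. Of the 10 stem cell markers checked, all were above 0 in both KO libraries and in WT replicate 1. RNA of cells that the sort should have left out was also present. The 5 neutrophil markers, all lower in both KO libraries, summed to 67486 and 58518 FPKM in KO and 159517 FPKM in WT replicate 1. The 4 B cell markers summed to 3114 and 5353 FPKM in KO and 4854 FPKM in WT replicate 1. Ly6g was at 222.5 and 266 FPKM in KO and 371 FPKM in WT replicate 1, and Cd34 at 87.7 and 62.1 FPKM in KO and 179 FPKM in WT replicate 1. The part of these cells in the results was not tested. In bulk RNA, more cells of a type and more RNA per cell cannot be told apart.

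The promoters of the 4 genes with the largest KO differences are shown because a GATA site and a CACCC box, the sequences that GATA1 and KLF1 are known to bind, are the classical elements of red cell promoters. Each is the 250 bases before the RefSeq start (GRCm38.p6), 5′ to 3′ on the gene's strand, and capitals mark GATAA and CACCC on either strand, TTATC and GGGTG being their reverse complements.
Zfpm1 promoter, chr8:122281891-122282140, plus strand: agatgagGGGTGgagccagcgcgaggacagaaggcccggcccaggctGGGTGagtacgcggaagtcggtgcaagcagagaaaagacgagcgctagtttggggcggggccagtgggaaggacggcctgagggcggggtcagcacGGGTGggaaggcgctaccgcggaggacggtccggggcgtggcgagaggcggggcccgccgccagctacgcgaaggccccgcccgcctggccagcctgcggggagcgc
Epor promoter, chr9:21963577-21963826, minus strand: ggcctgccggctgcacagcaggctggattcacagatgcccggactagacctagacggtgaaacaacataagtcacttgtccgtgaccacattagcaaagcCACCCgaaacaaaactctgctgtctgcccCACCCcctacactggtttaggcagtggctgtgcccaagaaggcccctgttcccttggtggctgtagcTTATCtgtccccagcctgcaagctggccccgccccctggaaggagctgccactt
Klf1 promoter, chr8:84901732-84901981, plus strand: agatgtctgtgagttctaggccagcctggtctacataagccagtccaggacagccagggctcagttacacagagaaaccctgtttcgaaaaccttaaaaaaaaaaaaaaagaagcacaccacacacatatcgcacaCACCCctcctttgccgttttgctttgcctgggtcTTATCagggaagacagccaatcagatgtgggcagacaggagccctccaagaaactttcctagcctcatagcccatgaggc
Gata1 promoter, chrX:7967911-7968160, minus strand: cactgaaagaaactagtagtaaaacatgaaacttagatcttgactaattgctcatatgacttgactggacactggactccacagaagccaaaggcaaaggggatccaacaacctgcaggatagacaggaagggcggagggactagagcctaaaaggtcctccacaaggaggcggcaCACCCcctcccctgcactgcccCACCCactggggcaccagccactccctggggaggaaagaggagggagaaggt
In Epor the GATAA match, read as TTATC, began 54 bases before the start, and the CACCC matches began 150 and 121 bases before it. In Klf1 the matches began 80 bases before the start for GATAA and 114 for CACCC. In Gata1 and Zfpm1 there was no GATAA in the window, with CACCC at 74 and 52 bases in Gata1 and at 243, 203 and 107 bases in Zfpm1. These distances are from the starts that RefSeq lists, and the gene coordinates given below are those of GENCODE. GENCODE carries Gata1 to a start further upstream, puts the Klf1 start inside the window shown, and puts the Epor start downstream of the RefSeq start. RefSeq windows were found for 8 of the 10 genes, in 11 windows, since Ldb1 has 3 and Tal1 has 2 starts. GATAA lay in 5 of the 11 and CACCC in 10, against 22.6% and 52% of all 32851 promoter windows of the same length. A match describes the letters and is not a site.

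All 10 genes were higher in both Fam122a KO libraries than in WT replicate 1, and none passed the test. With limma on log2(FPKM + 1), adjusted over 15867 genes, 0 of the 10 were called at an adjusted p of 0.05 (lowest adjusted p = 0.105, for Zfpm1), and 3 had an unadjusted p under 0.05, all higher in KO, where 13.2% of tested genes were higher and 20.2% lower at that p. Over all tested genes, 0.454% were called higher and 9.37% lower. Being above WT replicate 1 in both KO libraries was common, at 42.5% of tested genes. The median log2 difference of the 10 was 0.85, against -0.002 over all tested genes. At an adjusted p of 0.10 the count of the 10 was still 0, where 5.1% of genes were called higher and 15.1% lower. With quantile normalization 1 of them, Zfpm1, rose (limma adjusted p = 0.0461), where 5.45% were called higher and 10.8% lower.

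**Figure D1:**
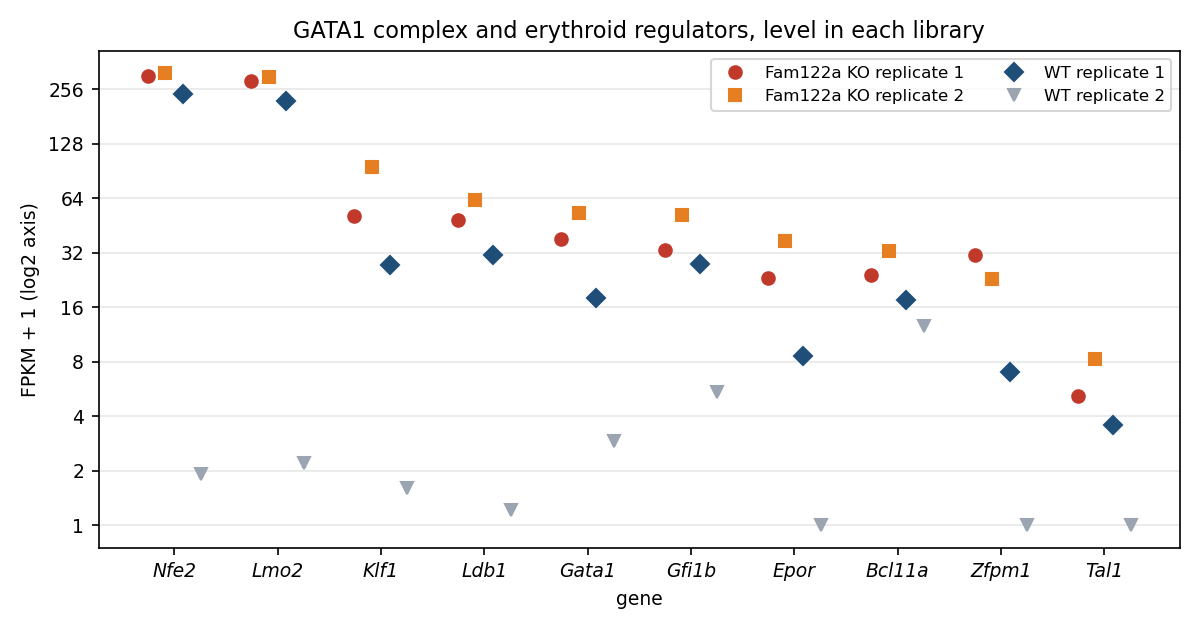
Level of each gene in each library as FPKM + 1 on a log2 axis, ordered by the KO mean; each point is 1 library. Both KO points lie above WT replicate 1 for every gene, and WT replicate 2 lies far below the rest except for Bcl11a.

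Gata1 was at 37.3 and 51.9 FPKM in Fam122a KO replicates 1 and 2, against 16.9 FPKM in WT replicate 1. The KO values were 2.20 and 3.06 times the WT value, and the KO libraries differed from each other by less than either did from WT replicate 1. The KO mean was 44.6 ± 10.3 FPKM (SD, n = 2), 2.63 times the WT value, with a fitted log2 difference of 1.33 (SE 0.30, limma adjusted p = 0.144). An estimated 555 and 678 fragments in KO and 158 in WT replicate 1 lay behind these values. The gene (ENSMUSG00000031162) lies on chromosome X, 7959260 to 7978071, minus strand, in GRCm38.

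Klf1, which drives globin and red cell membrane genes, was at 49.9 and 94.7 FPKM in the KO libraries and 26.4 FPKM in WT replicate 1. Its KO values were the most spread of the 10 on the log2 scale, 0.91 apart, a gap as wide as that of 0.90 between KO replicate 1 and WT replicate 1. The log2 difference was 1.35 (SE 0.56, limma adjusted p = 0.255). Klf1 (ENSMUSG00000054191) lies on chromosome 8, 84901928 to 84905291, plus strand.

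Tal1 was the lowest of the 10, at 4.19 and 7.24 FPKM in the KO libraries and 2.6 FPKM in WT replicate 1. The estimate of 45.7 fragments in WT replicate 1, against 118 and 178 in KO, makes it the least deeply read of the 10 there. Its log2 difference was 0.86 (SE 0.44, limma adjusted p = 0.312), and the KO pair differed by 0.67.

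Nfe2, the blood-specific partner of small MAF proteins, was the highest of the 10 in each of these 3 libraries, at 300.5 and 313 FPKM in KO and 241 FPKM in WT replicate 1. Its KO values lay close together, 0.06 apart on the log2 scale. The log2 difference of 0.34 (SE 0.08, limma adjusted p = 0.155) was the smallest of the 10.

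Gfi1b was at 32.2 and 50.5 FPKM in the KO libraries and 26.9 FPKM in WT replicate 1. KO replicate 1 was nearer to WT replicate 1 than to KO replicate 2, and the log2 difference was 0.57 (SE 0.40, limma adjusted p = 0.413). Bcl11a, which represses embryonic globin genes and also serves B cell and stem cell development, was at 23.2 and 31.9 FPKM in KO and 16.6 FPKM in WT replicate 1. Its log2 difference was 0.68 (SE 0.29, limma adjusted p = 0.263).

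Zfpm1, encoding the GATA1 cofactor FOG1, differed most. It was at 30.2 and 22.0 FPKM in the KO libraries, against 6.00 FPKM in WT replicate 1, so the KO mean of 26.1 ± 5.83 FPKM (SD, n = 2) was 4.35 times the WT value. The log2 difference was 1.94 (SE 0.30, limma adjusted p = 0.105). It was the only one of the 10 that was lower in KO replicate 2 than in KO replicate 1 (log2 difference between them -0.44). Zfpm1 (ENSMUSG00000049577) lies on chromosome 8, 122282141 to 122337251, plus strand.

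The bridging cofactors had smaller differences than Zfpm1. Lmo2, encoding the LIM protein that links TAL1 to LDB1, was at 284 and 299.8 FPKM in KO and 221 FPKM in WT replicate 1, a log2 difference of 0.40 (SE 0.09, limma adjusted p = 0.145). Ldb1, whose protein dimerises and brings distant enhancers to promoters, was at 47.7 and 62.0 FPKM in KO and 30.0 FPKM in WT replicate 1, a log2 difference of 0.84 (SE 0.24, limma adjusted p = 0.180).

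Epor was at 22.1 and 36.1 FPKM in the KO libraries, against 7.66 FPKM in WT replicate 1. Both KO values were well above the WT value, 2.88 and 4.71 times it, though the KO libraries also differed by 0.69 on the log2 scale. The log2 difference was 1.76 (SE 0.43, limma adjusted p = 0.156), resting on an estimated 261 and 375 fragments in KO and 56.7 in WT replicate 1. Epor (ENSMUSG00000006235) lies on chromosome 9, 21958897 to 21963506, minus strand.

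The order of the levels was set by Nfe2 and Lmo2 at the top and Tal1 at the bottom. In KO, Nfe2 (307 ± 8.66 FPKM, SD, n = 2) and Lmo2 (292 ± 11.5 FPKM) had single values that did not overlap each other or the rest, though the lower Nfe2 value (300.5 FPKM) was barely above the higher Lmo2 value (299.8 FPKM). Tal1 (5.71 ± 2.16 FPKM) lay below all the others. Between them Klf1, Ldb1, Gata1, Gfi1b, Epor, Bcl11a and Zfpm1 followed in that order of KO means, and each overlapped its neighbour. In WT replicate 1 the order was turned in 3 of the 9 neighbouring pairs, with Ldb1 above Klf1, Gfi1b above Gata1 and Bcl11a above Epor.

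WT replicate 2 gave these genes little signal. Tal1, Zfpm1 and Epor were listed at 0 there, where 3 fragments would have given 0.29, 0.36 and 0.67 FPKM. Nfe2 and Lmo2, the highest in the other libraries, were at 0.91 and 1.21 FPKM. Klf1, Ldb1, Gata1 and Gfi1b were at 0.61, 0.22, 1.91 and 4.46 FPKM. Bcl11a stood out at 11.6 FPKM, near its 16.6 FPKM in WT replicate 1. It has the longest span of the 10, 96068 bp, which is 7.29 times its exonic length. Among protein-coding genes the median of WT replicate 2 went up with the ratio of span to exonic length. It was 0.95 FPKM for ratios of 2 to 4 and 27.6 FPKM for ratios over 16. For ratios of 4 to 8, the band of Bcl11a, it was 1.87 FPKM, below the Bcl11a level. Zfpm1, with the highest ratio of the 10 at 15.7, was at 0. Lmo2 and Gata1 also had higher ratios than Bcl11a, with the lower levels given above. The part of gene span in the Bcl11a level was not tested. WT replicate 1 was also higher than KO in genes of high ratio. For ratios over 16 its median was 7.22 FPKM, against 0.92 and 1.02 FPKM in KO replicates 1 and 2. For ratios of 8 to 16 it was 6.07 FPKM, against 4.12 and 4.28 FPKM. For ratios of 4 to 8 it was 6.19 FPKM, against 6.47 and 6.65 FPKM. Against WT replicate 2 in place of WT replicate 1, 8 of the 10 were called higher, all but Tal1 and Bcl11a, where 34.2% of genes were called higher and 42.7% lower.

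The differences moved with base composition. The GC content of the transcripts of the 10 genes ran between 46.7% in Bcl11a and 64.6% in Zfpm1, with a median of 56.2%, against 49.1% over all tested genes. Among protein-coding genes the median log2 difference climbed with GC content, at -0.47 in genes of 40% or less and 0.65 in genes above 60%. Of 4894 protein-coding genes with 52 to 65% GC, 70.1% were above WT replicate 1 in both KO libraries, with a median log2 difference of 0.48. Within 2 percentage points of each gene's own GC content, the median difference of protein-coding genes was 0.41 at Gata1, 0.68 at Klf1, 0.65 at Zfpm1, 0.67 at Epor, 0.64 at Ldb1, 0.57 at Gfi1b and -0.09 at Bcl11a.

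**Figure D2:**
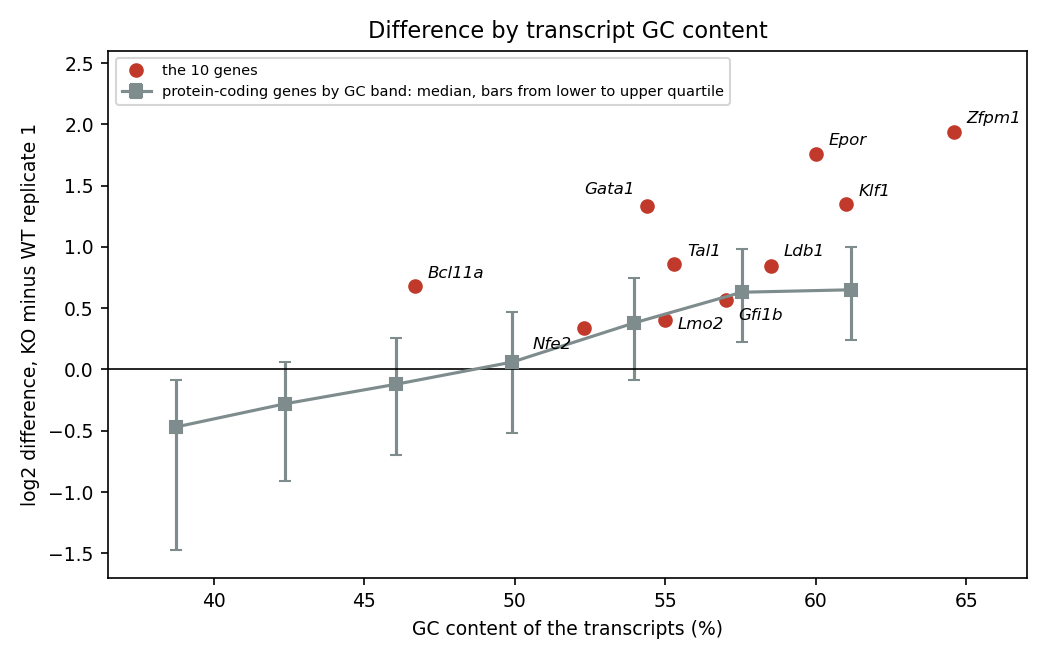
Log2 difference of KO from WT replicate 1 against the GC content of the transcripts (%), for the 10 genes and, as medians with quartiles, for protein-coding genes in 7 GC bands. Zfpm1, Epor, Gata1, Klf1, Tal1 and Bcl11a lie above the upper quartile of their band, while Lmo2, Gfi1b and Nfe2 lie near the medians.

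With that trend smoothed out of each library, in a correction chosen after seeing the data, the differences of 9 of the 10 shrank. Zfpm1 (1.25, SE 0.34, adjusted p = 0.122), Epor (1.12, SE 0.35, 0.150), Gata1 (0.97, SE 0.27, 0.125) and Bcl11a (0.91, SE 0.29, 0.151) then had the largest log2 differences by limma. Klf1 (0.69) and Tal1 (0.44) came next. Ldb1 (0.24), Nfe2 (0.16), Gfi1b (0.04) and Lmo2 (0.00) lay near 0. Bcl11a, the gene of lowest GC content, was the only one of the 10 whose difference grew. Then 8 of the 10 were above WT replicate 1 in both KO libraries, against 44.3% of all tested genes, and the median was 0.57 against 0.04. None passed, where 1.35% of genes were called higher and 12.7% lower. With the ratio of span to exonic length smoothed out as well, Zfpm1 was at 1.49, Epor at 0.98, Gata1 at 0.82 and Bcl11a at 0.74, Nfe2, Gfi1b and Lmo2 were just below 0, and none passed, where 1.38% were called higher and 7.17% lower.

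**Figure D3:**
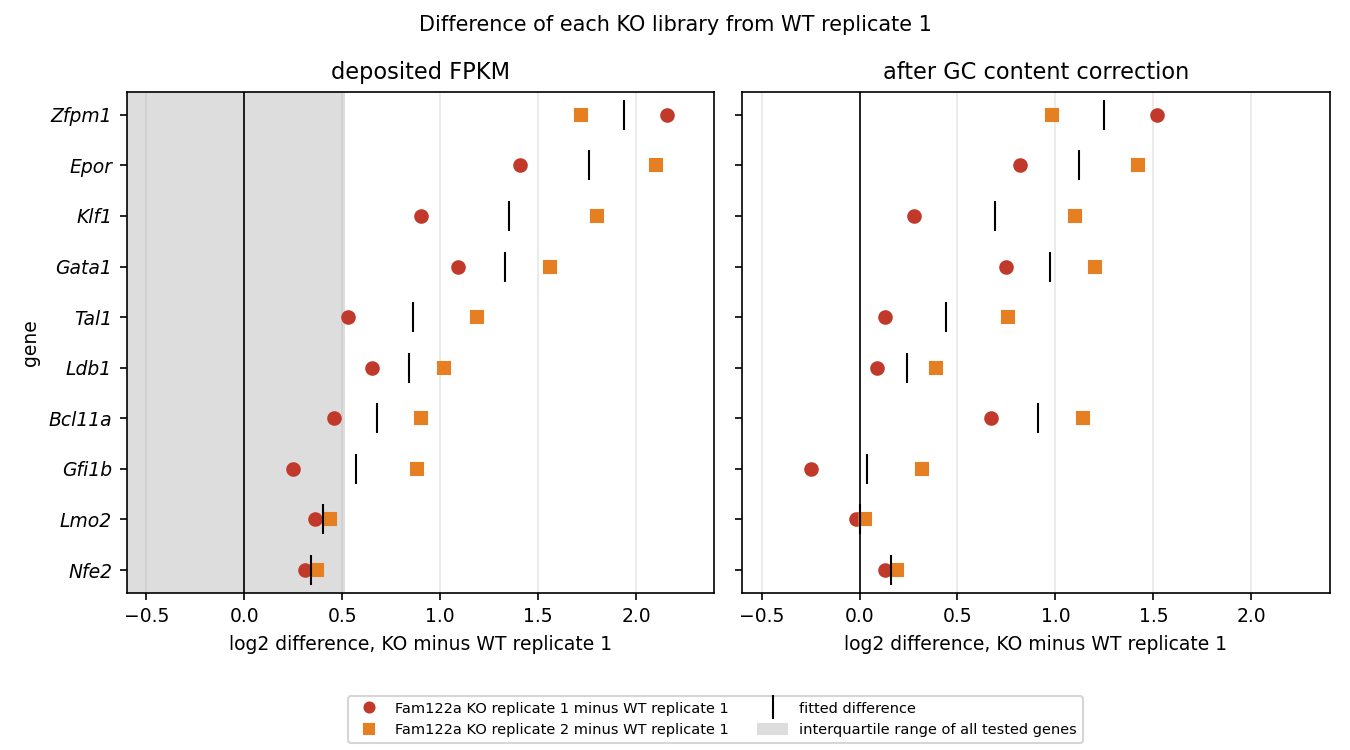
Log2 difference of each KO library from WT replicate 1, from the deposited FPKM on the left and after the GC content correction on the right; ticks are fitted differences and the grey band is the interquartile range of all tested genes. After the correction KO replicate 1 crosses below 0 for Gfi1b and Lmo2, and Zfpm1, Epor, Gata1 and Bcl11a are at 0.67 or more in both KO libraries.

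Ratios within a library do not depend on its scaling. The ratio of Gata1 to Gata2, the stem cell GATA factor that GATA1 replaces as red cells mature, was 0.674 and 1.18 in KO and 0.476 in WT replicate 1. Gata1 to Spi1, encoding the myeloid factor PU.1 that antagonises GATA1, was 0.151 and 0.274 in KO and 0.1 in WT replicate 1. Both ratios were higher in each KO library, and KO replicate 2 had the higher of the pair. Gata1 to Alas2, the erythroid haem synthesis gene, differed less, at 0.125 and 0.126 in KO and 0.1 in WT replicate 1. Klf1 to Slc4a1, the red cell anion exchanger, was lower in KO, at 0.297 and 0.278 against 0.554 in WT replicate 1. These ratios were not tested.

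Most red cell genes that GATA1 activates were above WT replicate 1, though none passed. Of 32 listed genes 31 were tested, 27 were above WT replicate 1 in both KO libraries, against 42.5% of all tested genes, and the median log2 difference was 1.05 (0.88 after the GC content correction). That share was 47.1% of tested protein-coding genes and 70.1% of those with 52 to 65% GC. The median GC content of the 31 was 52.1%. Cpox, a haem synthesis enzyme, was at 53.4 and 81.2 FPKM in KO and 19.4 FPKM in WT replicate 1. Slc25a37, the mitochondrial iron importer, was at 31.6 and 38.0 FPKM in KO and 13.4 FPKM in WT replicate 1. Trim10 and Trim58, encoding red cell TRIM proteins, had log2 differences of 1.60 and 1.37. Bnip3l, which clears mitochondria from maturing red cells, was the 1 gene below WT replicate 1 in both KO libraries, at 228 and 216 FPKM in KO and 284 FPKM in WT replicate 1. Car1, a carbonic anhydrase, had a log2 difference of -0.29. The summed level of the 7 matched erythroid markers, globins included, was 59659 and 79370 FPKM in KO and 51574 FPKM in WT replicate 1. The part of red cell RNA in the differences of the 10 genes was not tested.

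Genes of the signalling chain below the receptor had smaller differences. Of 16 erythropoietin signalling genes 0 passed and 14 were above WT replicate 1 in both KO libraries, against 42.5% of all tested genes. That share was 70.1% of protein-coding genes with 52 to 65% GC, and the median GC content of these 16 was 54.8%. Their median log2 difference was 0.56, or 0.30 after the GC content correction. Sh2b3, the LNK adaptor that restrains JAK2, was at 32.1 and 32.6 FPKM in KO and 17.0 FPKM in WT replicate 1. Stat5b, Irs2 and Bcl2l1 had log2 differences of 0.71, 1.18 and 1.18. Among 15 other erythroid transcription factors 0 passed and the median was 0.44, with Zbtb7a, the fetal globin repressor LRF in human cells, at 36.2 and 39.1 FPKM in KO and 19.3 FPKM in WT replicate 1.

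Of 19 NuRD, CoREST and coactivator subunits 2 rose and 0 fell, where 0.454% of all tested genes were called higher and 9.37% lower. The median was 0.54, 16 of the 19 were above WT replicate 1 in both KO libraries against 42.5% of all tested genes, and no gene of another list passed without a correction. Mbd3, a NuRD subunit, was one of them, at 111 and 109 FPKM in KO and 53.2 FPKM in WT replicate 1 (log2 difference 1.03, SE 0.07, limma adjusted p = 0.0491). After the GC content correction 0 of the 19 passed, and the difference of Mbd3 was 0.37. That correction instead brought calls in 5 other lists, where 1.35% of all genes were called higher and 12.7% lower, and those are given with each list.

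Among 18 GATA factors and complex partners outside the 10 genes, 0 passed and the median was 0.36. After the GC content correction 1 of the 18 rose, Myb (log2 difference 1.15, SE 0.13, limma adjusted p = 0.0279), and 1 fell, Zfpm2 (-3.36, SE 0.48, limma adjusted p = 0.0437). On the deposited scale Myb, the progenitor factor, was at 115 and 118 FPKM in KO and 63.3 FPKM in WT replicate 1, and Tcf3, the E protein partner of TAL1, at 114 and 180 FPKM in KO and 35.2 FPKM in WT replicate 1. Ssbp4, encoding a single-stranded DNA-binding protein of the family that partners LDB1, was at 95.1 and 90.9 FPKM in KO and 49.9 FPKM in WT replicate 1. Zfpm2, encoding FOG2 of heart and gonad, went the other way from its relative Zfpm1, at 0.11 and 0.95 FPKM in KO and 17.8 FPKM in WT replicate 1. It was at 216 FPKM in WT replicate 2 and has a span 47.1 times its exonic length, so its WT level cannot be told apart from the signal of long genes there.

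**Figure D4:**
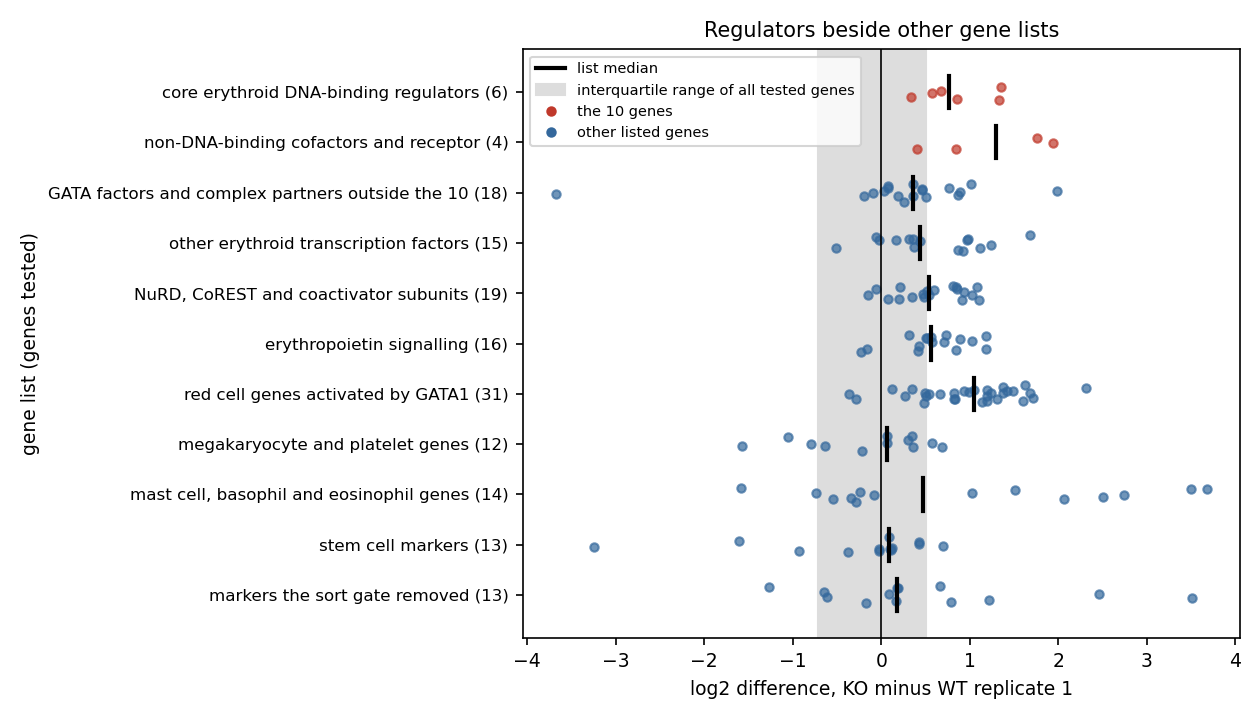
Log2 difference of KO from WT replicate 1 for the 10 genes, in 2 groups, and for 9 other lists; each point is a gene, the black bar is the list median, and the grey band is the interquartile range of all tested genes. The regulators and the red cell genes lie mostly above 0, and megakaryocyte genes lie on both sides.

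The other lineages that use GATA1 did not move as 1 group. Of 12 tested megakaryocyte and platelet genes 0 passed and the median was 0.07, with 2 above and 5 below WT replicate 1 in both KO libraries. Pf4, the platelet factor gene, was at 39.5 and 22.6 FPKM in KO and 91.1 FPKM in WT replicate 1, while Treml1 and Itga2b, encoding platelet surface proteins, had log2 differences of 0.69 and 0.36. With GC content corrected, Treml1 was at 0.17, Itga2b at -0.23 and Pf4 at -1.61. The list median was then -0.17, with 3 of the 12 above 0. After the GC content correction 2 of the 12 fell, among them Gp9 (-1.64, SE 0.24, limma adjusted p = 0.0467), a chain of the von Willebrand factor receptor. The 6 megakaryocyte markers summed to 102 and 53.2 FPKM in KO and 135 FPKM in WT replicate 1, most of the WT sum being Pf4. Of 14 mast cell, basophil and eosinophil genes 0 passed, with a median of 0.47, and 7 were above and 6 below WT replicate 1 in both KO libraries. The eosinophil genes Epx (log2 difference 3.68) and Alox15 (3.50) were high in KO, at 748 and 403 FPKM against 41.8 FPKM in WT replicate 1 for Epx. Ms4a2, a chain of the IgE receptor of mast cells and basophils, was lower, at 2.66 and 2.49 FPKM in KO and 9.78 FPKM in WT replicate 1. After the GC content correction the eosinophil genes Epx (3.17), Alox15 (3.28) and Ccr3 (2.27), encoding the eotaxin receptor, rose (limma adjusted p = 0.0488, 0.0303 and 0.0319). Of the 6 markers of these cells, the eosinophil genes Prg2 and Epx were higher in both KO libraries, and Cpa3, Mcpt8, Ms4a2 and Prss34, of mast cells and basophils, were lower in both. Prg2 alone was at 8593 and 4666 FPKM in KO and 947 FPKM in WT replicate 1, most of the sum of the 6, which was 9653 and 5362 FPKM in KO and 1366 FPKM in WT replicate 1. Between the KO libraries, the erythroid sum was higher in replicate 2 and this sum in replicate 1. Of the 10 genes, 9 were higher in KO replicate 2, and Zfpm1 was higher in KO replicate 1. Which cells the RNA of the 10 genes came from was not tested.

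Of 13 tested stem cell markers 0 passed and the median was 0.09, with 6 above and 4 below WT replicate 1 in both KO libraries. Tek, the angiopoietin receptor, was at 4.43 and 2.74 FPKM in KO and 41.5 FPKM in WT replicate 1, and at 79.7 FPKM in WT replicate 2, with a span 28.8 times its exonic length. It fell after the GC content correction (log2 difference -3.03, SE 0.37, limma adjusted p = 0.0319). Ctnnal1 and Mllt3 had log2 differences of -1.61 and -0.93. A further list of 13 genes was drawn up as markers that the sort gate should remove. It includes Ptprc, encoding CD45, which stem cells also carry, so the list is not made up only of removed markers. Of these 13 genes 0 passed and the median was 0.18, with Ptprc counted. After the GC content correction 2 of them rose, among them the interleukin 7 receptor gene Il7r (1.82, SE 0.22, limma adjusted p = 0.0325).

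Across the 4 libraries, the protein-coding genes nearest to Gata1 by Euclidean distance of log2(FPKM + 1), among 19837, were Vps52 (0.132), Cherp (0.144) and Myo1c (0.153). Nearest to Klf1 were Maz (0.332), Incenp (0.515) and Cd69 (0.535), and nearest to Epor were Sap25 (0.325), Sapcd2 (0.350) and the red cell skeleton gene Epb42 (0.374). Over only 4 libraries, such nearness describes these values alone.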

How the data were processed

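Per the labels' protocols, RNA of sorted cells was made into SMART-Seq v4 libraries, a kit that does not mark strand. Per the submitters' processing notes, the tools were STAR 2.7.1a, HISAT2 2.1.0 and bcl2fastq, and the builds mm10 and GRCm38.p5, with no role given. The deposited values were taken as FPKM, from the values and not from a statement of the authors, and the tool that made them is not given in the sources used here. The files hold no counts. Depth was estimated by a search for the number of fragments, with a length offset of 210 to 250 bp, that put low values of single-exon genes within 0.1 of whole numbers (83.5 to 89.6% of genes). Fragment numbers of genes with several exons are rougher, and cover counting error only.

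Symbols, coordinates, exonic lengths and transcript GC content came from GENCODE M21 (GRCm38), with 51719 symbols matched, and promoters from RefSeq. The 35791 MSTRG loci stayed out of the tests. Both KO libraries were set against WT replicate 1 with limma 3.58.1 (R 4.3.3, intensity trend), on log2(FPKM + 1) in genes with a mean of at least 1 FPKM, with Benjamini-Hochberg adjustment. A fold change so computed understates low genes. WT replicate 1 was assumed to vary like the KO pair, and p-values measure the spread between these pools only. The fit was tested on simulated data, in which the WT library too was drawn around the KO mean with the KO spread. That simulation holds no GC or span trend, so it cannot show how far the p-values against the real WT library hold.

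The 10 genes and the lists were chosen with earlier results of these data known. Named list genes were those with the smallest p, up to 4 a list, and some are not reported here. Ahsp, a listed erythroid gene, was not matched. Alternatives covered the libraries used, a replicate block, pseudocount, filter, scaling, threshold, subtraction of the WT replicate 2 profile and coding genes only, and 2 corrections for GC content and span were added later.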

Additional observations from a re-analysis of the deposited data

How the results depend on the processing

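All 10 genes lay above 0 under each alternative in which they were tested, except that correcting for GC content and then genomic span, chosen after seeing the data, put Nfe2, Gfi1b and Lmo2 at -0.05, -0.13 and -0.02; the cause was not tested. The count of the 10 called stayed at 0 except with quantile normalization, where 1 (Zfpm1, 2.30, adjusted p = 0.0461) was called, with 5.45% of all genes called higher, and without WT replicate 1, where 8 were called against WT replicate 2, with 34.2% of all genes called higher. Leaving out KO replicate 1 or 2 gives differences with no test, with medians over the 10 of 1.11 and 0.59, against 0.85 with both.

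Over all genes, 1559 were called, 72 higher and 1487 lower. That count was 0 with all 4 libraries, with or without a replicate block (unadjusted p under 0.05 in 118 higher and 2364 lower genes without the block, 191 and 1932 with it), 15953 without WT replicate 1, 701 with a pseudocount of 0.1, 10026 with no filter, 533 with a mean of at least 5 FPKM, 221 with at least 1 FPKM in at least 2 libraries, 2581 with quantile normalization, 3201 at an adjusted p under 0.10 and 468 after subtraction of the WT replicate 2 profile. The share called higher was 4.62%, and 33.5% with quantile normalization, 25.3% at the looser threshold, 16.1% after both corrections and 44.5% without WT replicate 1. Scaling to equal totals or quantiles moved the median of all genes by 0.22 and 0.21, and the 10 genes had medians of 1.05 and 1.03 under them. After subtraction of the WT replicate 2 profile the median was 0.31 over all genes and 0.85 over the 10. The replicate numbers share no stated source, so they were not taken as pairs. The KO and WT differences between them correlated at 0.039 across genes. That value cannot decide on pairing, since the WT difference includes the library with little mRNA signal. With 1 usable WT library, no WT spread was measured, which limits every p here.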
